A study of Mus musculus with 15 samples.

Results

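Aquaporins, the membrane channels for water and small uncharged solutes, were followed through RNA sequencing of mouse colonic crypts. The genes were Aqp1, Aqp3, Aqp4, Aqp7, Aqp8 and Aqp11, taken from the gene table by symbol and not by any measured value. These were 6 of the 32939 genes in the table, and 4 of them (Aqp1, Aqp4, Aqp8 and Aqp11) passed the filter on low counts and were tested among 17404 genes. The 15 libraries fell into 3 groups of 5, all from mice labelled wild type (WT). FL-shAlpl libraries came from mice with a fatty liver on a CDAA diet, a name used for choline-deficient feeds with defined amino acids, that carried AAV-shAlpl, an adeno-associated virus with a short hairpin RNA against Alpl. FL-shGFP libraries came from mice with the same diet and fatty liver that carried AAV-shGFP, the control hairpin. NL-shGFP libraries came from mice with a normal diet and a normal liver that carried AAV-shGFP. The feed and the state of the liver therefore cannot be told apart, every mouse carried a vector, and AAV-shAlpl was used on the CDAA diet alone. The labels gave no sex, age, batch or tissue reached by the vector, and did not say that replicates were separate animals, so the p-values may measure only technical spread between libraries.

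Aquaporins form channels that let water cross membranes along osmotic gradients. In the colon, water is taken up after salt is absorbed by the surface epithelium, and channels on the lumenal side and the blood side of those cells differ. Aqp8 and Aqp4 are the channels described in the colonic epithelium of rodents, Aqp4 at the basolateral membrane. Aqp8 also passes hydrogen peroxide, and Aqp1 is best known from red cells and vessel endothelium. Aqp3 and Aqp7 are aquaglyceroporins, which also pass glycerol, and Aqp11 is an unorthodox family member of intracellular membranes.

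RefSeq windows on the GRCm38.p6 build matched 5 of the 6 genes by symbol (Aqp1, Aqp3, Aqp7, Aqp8 and Aqp11). The 250 bases before the start are printed for the 3 tested genes among them, to show how the start regions of genes with unlike patterns differ in base composition. They lie at chr7:123462044-123462293 on the plus strand for Aqp8, chr6:55336049-55336298 on the plus strand for Aqp1 and chr7:97738248-97738497 on the minus strand for Aqp11. Each runs 5′ to 3′ along its gene's strand, and capitals mark every CpG, the base pair step at which vertebrate DNA is methylated.
Aqp8: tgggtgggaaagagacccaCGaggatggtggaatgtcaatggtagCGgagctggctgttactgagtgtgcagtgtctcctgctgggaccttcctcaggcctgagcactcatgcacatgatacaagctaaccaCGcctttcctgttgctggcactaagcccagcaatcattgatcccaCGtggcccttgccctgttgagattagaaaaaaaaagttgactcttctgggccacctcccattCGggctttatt
Aqp1: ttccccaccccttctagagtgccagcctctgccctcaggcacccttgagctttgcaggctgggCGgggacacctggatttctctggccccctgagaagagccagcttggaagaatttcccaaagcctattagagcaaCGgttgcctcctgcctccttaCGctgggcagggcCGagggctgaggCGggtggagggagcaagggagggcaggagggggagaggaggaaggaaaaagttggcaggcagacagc
Aqp11: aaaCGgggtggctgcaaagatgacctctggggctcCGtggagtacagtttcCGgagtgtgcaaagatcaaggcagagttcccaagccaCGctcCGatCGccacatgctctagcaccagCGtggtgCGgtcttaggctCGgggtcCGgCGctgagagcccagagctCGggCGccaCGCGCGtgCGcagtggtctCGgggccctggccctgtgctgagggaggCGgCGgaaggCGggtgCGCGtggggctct
The Aqp11 window held 23 CpG and 67.2% G and C. The Aqp8 window held 5 CpG at 52.4% G and C, and the Aqp1 window held 5 CpG at 62.0%. Among 32536 distinct RefSeq windows of that length the median was 6 CpG, 13.4% held at least 23 and 49.3% held at most 5, so Aqp11 was the CpG-rich one of the 3. In these windows 6 motifs were searched on both strands, and no motif holds another. The TATA box, TATAAA, was in 12.3% of all 32536 windows. The CDX motif, CATAAA, was in 10.8%. The HNF4 motif, CAAAGTCC, was in 1.20%, and the TCF/LEF motif, CTTTGAT, in 3.21%. A glucocorticoid receptor half-site, AGAACA, was in 16.0%, and the GC box, GGGCGG, in 33.0%. The one match in the 3 windows was a GC box 190 bases before the start of Aqp1, a match of letters and no more.

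Library totals ran from 33.3 M to 58.6 M counts. Mitochondrially encoded genes took 14.8% to 24.3% of counts in FL-shAlpl, 13.7% to 21.5% in FL-shGFP and 28.0% to 37.5% in NL-shGFP. Leaving these genes out of the fit, run as an alternative, changed no aquaporin call. Any other part of this difference in the results below was not tested. General epithelial genes (Epcam, Cdh1, Vil1 and others, 10 of 10 in the table) summed to 10547 to 16539 CPM, counts scaled by library totals with TMM factors, in FL-shAlpl, 11556 to 16910 in FL-shGFP and 9631 to 11768 in NL-shGFP, so the libraries held the labelled epithelium. Alpl RNA, the target of the hairpin, was lower in all 5 FL-shAlpl libraries than in any FL-shGFP library, with a log2 fold change of -3.16 ± 0.63 (edgeR adjusted p = 0.00197), where ± gives the standard error, as beside every log2 fold change below. It was close to 0 throughout, at 12 counts summed over the FL-shAlpl libraries, 95 over FL-shGFP and 2 over NL-shGFP.

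The group means of the 6 genes spanned 0.0184 to 221 in level per length, and the gene on top differed between the groups. Levels are the deposited FPKM, a count scaled by gene length and library total, given as mean ± SD (n = 5). In FL-shAlpl the order was Aqp4 (146 ± 59.8 FPKM), Aqp8 (144 ± 66.6), Aqp1 (32.7 ± 11.3) and Aqp11 (1.66 ± 0.293). The ranges of Aqp4 and Aqp8 overlapped there, and at each later step down to Aqp3 the ranges of neighbours did not overlap. In FL-shGFP the order was Aqp8 (221 ± 166 FPKM), Aqp4 (67.2 ± 15.1), Aqp1 (30.3 ± 29.9) and Aqp11 (1.08 ± 0.239), and Aqp8, Aqp4 and Aqp1 overlapped from neighbour to neighbour. In NL-shGFP Aqp1 stood first (60.5 ± 4.92 FPKM), before Aqp8 (42.9 ± 20.8), Aqp4 (35.2 ± 14.5) and Aqp11 (1.59 ± 0.275). Aqp1 and Aqp8 overlapped there, as did Aqp8 and Aqp4, and Aqp11 lay apart from them in every group. Aqp3 and Aqp7 ended the order in each group, at 0.0394 ± 0.0283 and 0.0184 ± 0.0191 FPKM in FL-shAlpl, 0.178 ± 0.0930 and 0.0471 ± 0.0222 in FL-shGFP, and 0.0198 ± 0.0296 and 0.0248 ± 0.0269 in NL-shGFP. The 2 overlapped in each group.

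**Figure D1:**
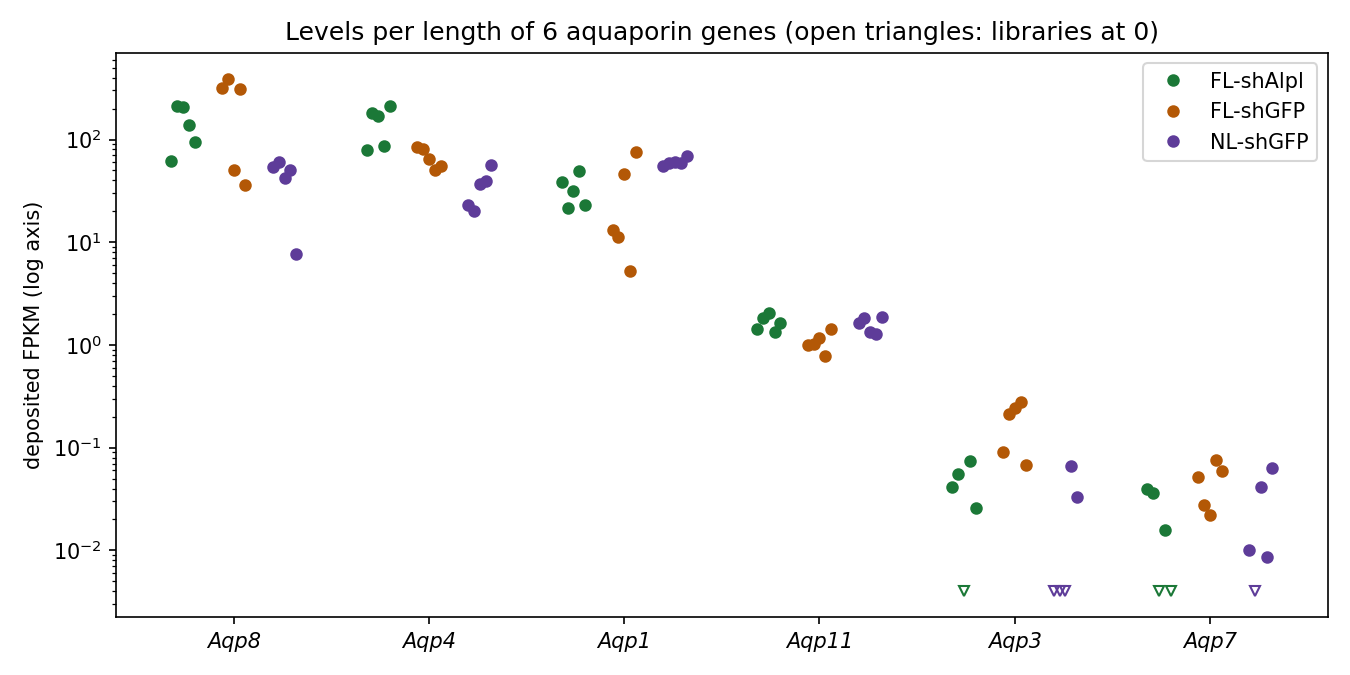
Deposited FPKM on a log axis for the 6 aquaporin genes, 1 point per library, with FL-shAlpl, FL-shGFP and NL-shGFP from left to right at each gene. Aqp8, Aqp4 and Aqp1 sit between 5.28 and 391 FPKM, Aqp11 between 0.779 and 2.06, and Aqp3 and Aqp7 at or below 0.277, with open triangles for libraries at 0.

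Aqp8, the water channel of the colonocyte, was higher in FL-shGFP than in NL-shGFP, and it varied within FL-shGFP more than in the other groups. Library by library (replicates 1 to 5, TMM-scaled CPM), Aqp8 stood at 88.9, 339, 290, 205 and 157 in FL-shAlpl, 519, 648, 76.3, 552 and 52.0 in FL-shGFP, and 88.9, 99.4, 74.2, 86.2 and 11.5 in NL-shGFP. FL-shGFP replicates 1, 2 and 4 lay above every NL-shGFP library, while replicates 3 and 5 lay inside the NL-shGFP range, so the groups overlapped. Replicate 5 of NL-shGFP was far below its group. The highest FL-shGFP library held 12.5 times the CPM of the lowest, against 3.81 times in FL-shAlpl and 8.65 times in NL-shGFP.

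The log2 rise of Aqp8 in FL-shGFP over NL-shGFP was 2.36 ± 0.69 (edgeR adjusted p = 0.0117), a 5.13-fold difference of fitted means. In FL-shAlpl its log2 fold change against FL-shGFP was -0.77 ± 0.65 (edgeR adjusted p = 0.374), and the 95% interval from -2.20 to 0.65 spans both a large fall and a modest rise. Against NL-shGFP it was 1.58 ± 0.67 in FL-shAlpl (edgeR adjusted p = 0.115), with 4 of 5 FL-shAlpl libraries above every NL-shGFP library. That last comparison passed with edgeR when only its 2 groups were fitted (adjusted p = 0.0482). In bulk RNA, fewer cells of a type and less RNA per cell cannot be told apart, here and for each gene below.

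Aqp4, the basolateral water channel, differed between all 3 groups in the order FL-shAlpl, FL-shGFP, NL-shGFP. Its CPM in replicates 1 to 5 was 444, 1152, 937, 498 and 1373 in FL-shAlpl, 544, 532, 383, 354 and 311 in FL-shGFP, and 152, 129, 256, 270 and 332 in NL-shGFP. Every FL-shAlpl library lay above every NL-shGFP library. FL-shAlpl replicates 2, 3 and 5 were above all FL-shGFP libraries and replicates 1 and 4 were among them, and 4 of 5 FL-shGFP libraries were above all NL-shGFP libraries.

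Aqp4 rose in FL-shAlpl over FL-shGFP by 1.05 ± 0.33 on the log2 scale (edgeR adjusted p = 0.0216), and over NL-shGFP by 1.95 ± 0.33 (edgeR adjusted p = 0.00143), a 3.87-fold difference. FL-shGFP was also above NL-shGFP, a rise of 0.90 ± 0.33 (edgeR adjusted p = 0.0340). Both smaller calls were narrow. Against FL-shGFP the edgeR adjusted p of FL-shAlpl was 0.0578 without FL-shAlpl replicate 2, 0.0523 without FL-shAlpl replicate 5 and 0.0546 without FL-shGFP replicate 4, and also 0.0546 with no filter on low counts. FL-shGFP against NL-shGFP gave edgeR adjusted p of 0.0811 without FL-shGFP replicate 1, 0.0753 without FL-shGFP replicate 2, 0.0802 without NL-shGFP replicate 1, 0.0799 without NL-shGFP replicate 2 and 0.0944 with no filter. With the closest NL-shGFP libraries summed (replicates 3 and 4, and 1 and 2), its edgeR adjusted p was 0.125. The call of FL-shAlpl against NL-shGFP held when each library was left out, with log2 fold changes from 1.74 to 2.13.

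A gene on the opposite strand, AC133525.2, overlaps Aqp4 in the GENCODE M21 annotation. Its counts in replicates 1 to 5 were 82, 206, 144, 77 and 195 in FL-shAlpl, 64, 64, 96, 11 and 95 in FL-shGFP, and 8, 19, 16, 19 and 17 in NL-shGFP. All FL-shAlpl libraries were above all NL-shGFP libraries, and FL-shGFP lay between with 1 library, replicate 4, in the NL-shGFP range. AC133525.2 rose in FL-shAlpl over NL-shGFP (log2 fold change 2.66 ± 0.45, edgeR adjusted p = 0.00123) and FL-shGFP was above NL-shGFP by 1.60 ± 0.44 (edgeR adjusted p = 0.00848, and 0.0577 with limma on log2(FPKM + 1)). FL-shAlpl against FL-shGFP gave 1.06 ± 0.41 (edgeR adjusted p = 0.0563), which passed without FL-shGFP replicate 3 (0.0474) or 5 (0.0479) and without FL-shAlpl replicate 1 (0.0363) or 4 (0.0461). With all libraries it passed with DESeq2 (0.0327) and with limma voom (0.0186). Whether the counting used strand is not given in the sources used here, so reads of AC133525.2 and Aqp4 cannot be told apart where they overlap. The summed Aqp4 counts were 221478 in FL-shAlpl, 98874 in FL-shGFP and 39919 in NL-shGFP, against 704, 330 and 79 for AC133525.2.

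Aqp1, the channel known from vessels and red cells, was even in NL-shGFP and uneven in FL-shGFP. Replicates 1 to 5 held 90.8, 58.0, 72.8, 119 and 62.6 CPM of Aqp1 in FL-shAlpl, 36.0, 30.8, 117, 15.5 and 179 in FL-shGFP, and 151, 160, 176, 170 and 170 in NL-shGFP. All 5 FL-shAlpl libraries and 4 of 5 FL-shGFP libraries lay below every NL-shGFP library, and FL-shGFP replicate 5 lay above them all. The coefficient of variation was 30.7% in FL-shAlpl, 92.5% in FL-shGFP and 5.97% in NL-shGFP.

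No comparison of Aqp1 passed the test. The log2 fold change of FL-shGFP against NL-shGFP was -1.13 ± 0.49 (edgeR adjusted p = 0.0703). Without FL-shGFP replicate 5 it was -1.73 and passed (edgeR adjusted p = 0.00550), and with all libraries it passed with DESeq2 (0.0286), limma voom with quality weights (0.000376) and limma on log2(FPKM + 1) (0.0244). FL-shAlpl against NL-shGFP gave -1.04 ± 0.49 (edgeR adjusted p = 0.158), and that passed when only those 2 groups were fitted (edgeR adjusted p = 0.00200), a fit that leaves out the spread of FL-shGFP, and with limma voom (0.0135). FL-shAlpl against FL-shGFP gave 0.09 ± 0.48 (edgeR adjusted p = 0.901), a difference with a 95% interval from -0.96 to 1.15.

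Vessel markers were low in all groups. The 14 vessel endothelium genes together summed to 10.4 to 27.7 CPM in FL-shAlpl, 17.5 to 32.7 in FL-shGFP and 8.36 to 12.5 in NL-shGFP, and no gene of that list was at 0 throughout a group. Of 12 tested vessel genes, 7 rose and none fell in FL-shGFP over NL-shGFP, where 46.7% of all genes tested passed, 25.1% higher. Their median log2 fold change was 0.91, against -0.00 over all genes tested. Pecam1, an adhesion molecule of endothelium, rose by 0.88 ± 0.26 in that comparison (edgeR adjusted p = 0.0111). In FL-shAlpl against FL-shGFP, 6 of the 12 fell and none rose, with a median of -1.16, where 36% of all genes tested passed. The 7 red cell genes, haemoglobins among them, summed to 9.56 to 221 CPM in FL-shAlpl, 52.9 to 319 in FL-shGFP and 43.1 to 133 in NL-shGFP, and none of the 6 tested passed in any comparison in the edgeR fit of all 3 groups with TMM factors, nor had an unadjusted p below 0.05 there. In FL-shGFP against NL-shGFP an unadjusted p was below 0.05 for 1 of them in edgeR with library totals alone, and for 2 in edgeR with only the 2 groups compared. In FL-shGFP against NL-shGFP 1 of them passed with DESeq2 and 1 with limma voom. The part of vessel and red cell genes in the Aqp1 values was not tested.

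Aqp11, the intracellular family member, was lower in FL-shGFP than in both other groups. Its CPM in replicates 1 to 5 was 12.1, 17.4, 17.0, 11.7 and 16.1 in FL-shAlpl, 9.72, 9.996, 10.6, 8.18 and 12.1 in FL-shGFP, and 16.3, 17.8, 13.8, 13.1 and 16.5 in NL-shGFP. All 5 FL-shGFP libraries were below every NL-shGFP library, and 3 of 5 FL-shAlpl libraries were clearly above every FL-shGFP library. FL-shAlpl replicate 1 was level with FL-shGFP replicate 5, at 12.07 CPM each. In FPKM, FL-shGFP replicate 5 (1.42) was above NL-shGFP replicates 3 and 4 (1.33 and 1.27). Aqp11 fell by 0.61 ± 0.15 on the log2 scale in FL-shGFP against NL-shGFP (edgeR adjusted p = 0.00341), a 1.53-fold difference. It rose by 0.55 ± 0.15 in FL-shAlpl over FL-shGFP (edgeR adjusted p = 0.00952), a 1.47-fold difference. Against NL-shGFP, FL-shAlpl differed by -0.06 ± 0.15 (edgeR adjusted p = 0.816), with a 95% interval from -0.38 to 0.25. The fall in FL-shGFP held with each library left out, at -0.69 to -0.55, as did the rise in FL-shAlpl over FL-shGFP, at 0.45 to 0.63.

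**Figure D2:**
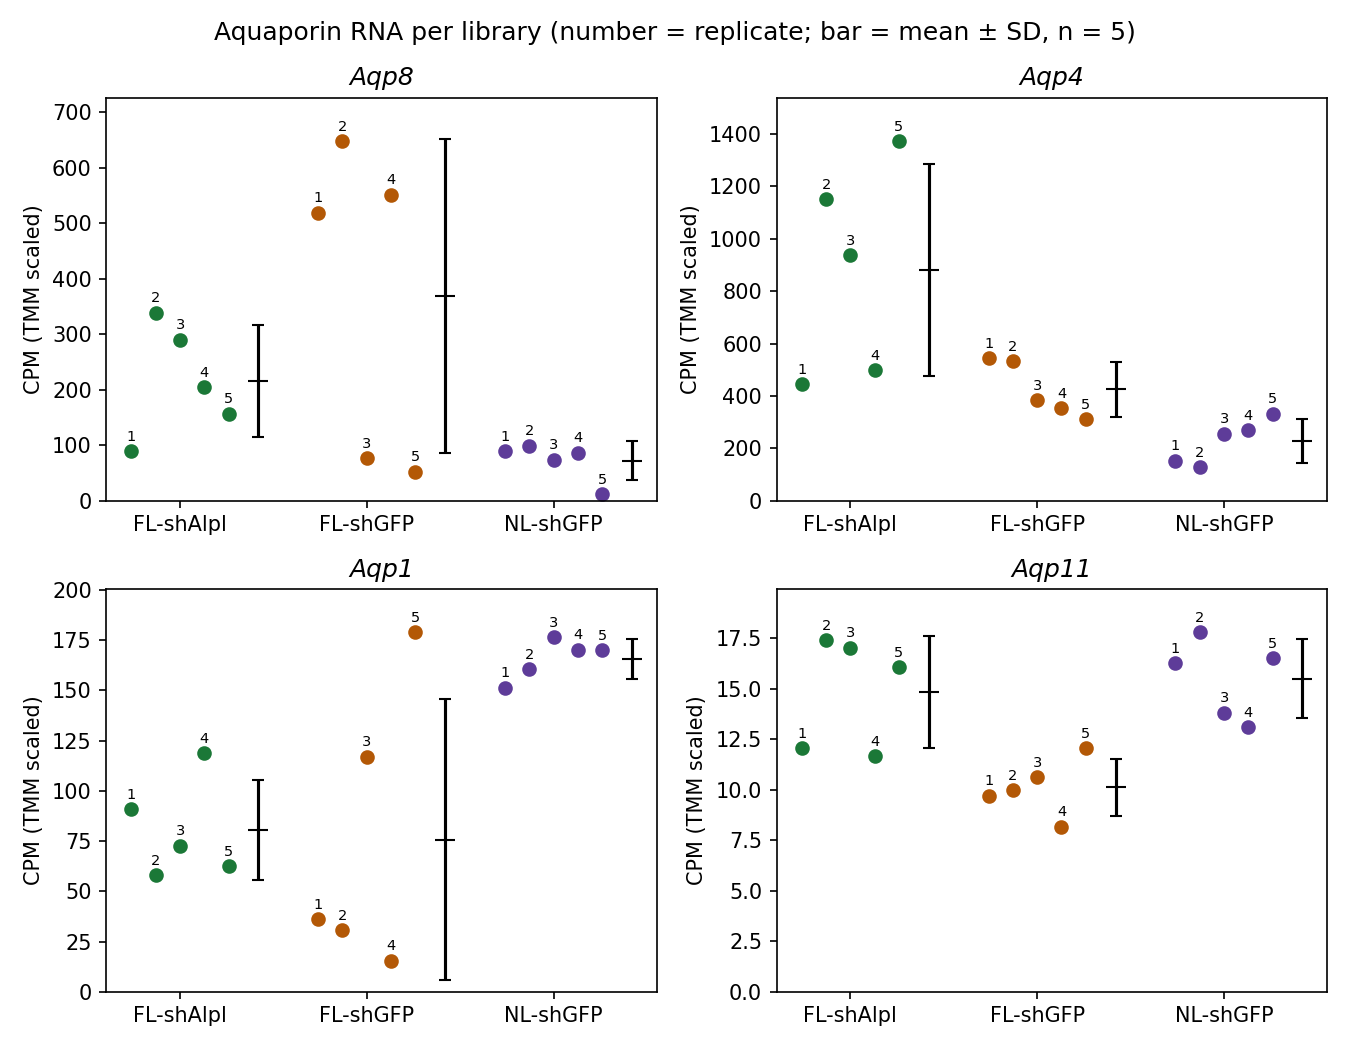
TMM-scaled CPM of Aqp8, Aqp4, Aqp1 and Aqp11 in each library, with the replicate number above each point and the mean ± SD (n = 5) beside each group. FL-shGFP replicates 3 and 5 are low for Aqp8 (76.3 and 52.0 CPM) and high for Aqp1 (117 and 179), and all FL-shAlpl points of Aqp4 are above the NL-shGFP points.

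Among the 4 tested aquaporins, 2 rose (Aqp8 and Aqp4) and 1 fell (Aqp11) in FL-shGFP against NL-shGFP. Over all genes tested, 46.7% passed in that comparison, 25.1% higher and 21.6% lower, and a count of 3 among 4 genes stands beside that high share. With library totals alone as the scale, 65.8% of the genes called there were higher, against 53.8% with TMM factors. In FL-shAlpl against FL-shGFP, 2 of 4 rose (Aqp4 and Aqp11) and none fell, where 36% of all genes passed, 18% higher and 17.9% lower. In FL-shAlpl against NL-shGFP, 1 of 4 rose (Aqp4) and none fell, where 17.4% passed, 9.31% higher and 8.12% lower. With totals alone 75.0% of the genes called there were higher, against 53.4% with TMM factors, and the median log2 fold change of all genes was 0.19, against 0.05. FL-shGFP and NL-shGFP did not overlap for Aqp11, which lay below as 16.2% of all genes did, while 18.1% lay above. FL-shAlpl and FL-shGFP overlapped for all 4, where 7.63% of genes lay wholly above and 9.29% wholly below. FL-shAlpl and NL-shGFP did not overlap for Aqp4 (above, as for 7.54% of genes) and Aqp1 (below, as for 7.01%). The comparisons share libraries, FL-shGFP being the numerator of the first and the denominator of the second.

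**Figure D3:**
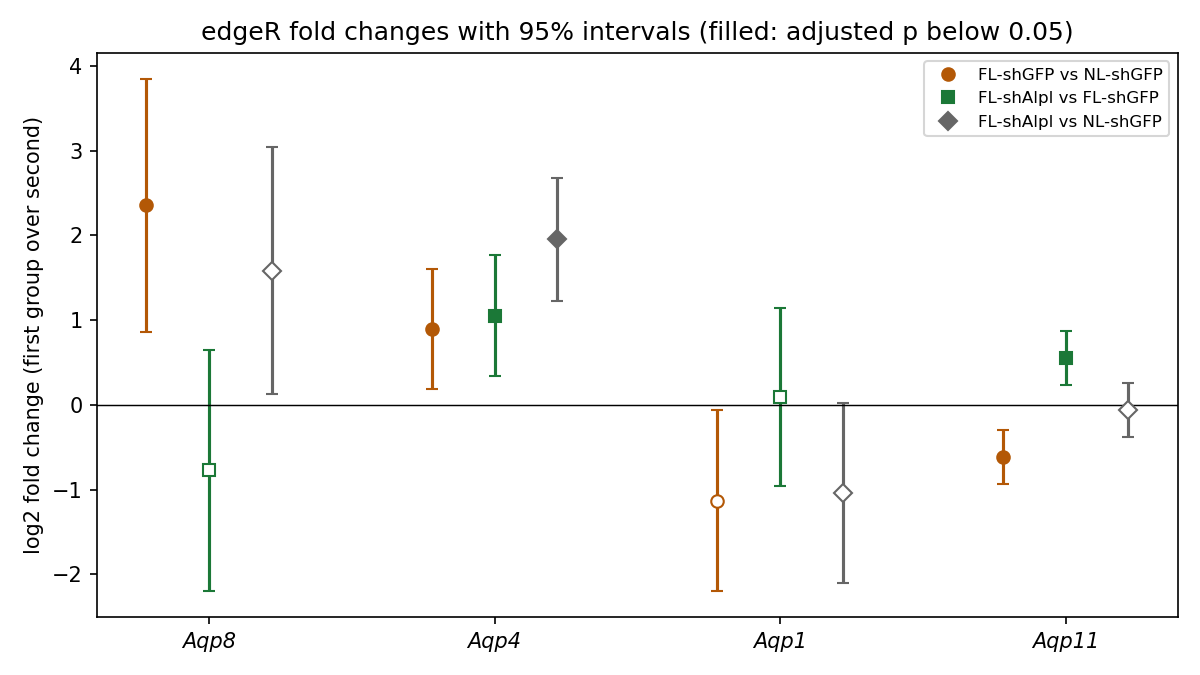
Log2 fold changes of the 4 tested aquaporins in the 3 comparisons, first-named group over second, with filled symbols where the edgeR adjusted p is below 0.05. The 95% intervals were formed from the standard errors with 12 degrees of freedom. Unlike the p that sets the filling, they are not adjusted for the number of genes tested. Aqp4 is filled in all 3 comparisons (0.90, 1.05 and 1.95), Aqp8 in 1 (2.36), Aqp11 in 2 (-0.61 and 0.55) and Aqp1 in none.

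Aqp3 and Aqp7, the 2 glycerol channels, were at the edge of detection and failed the filter on low counts. The Aqp3 counts in replicates 1 to 5 were 4, 6, 0, 6 and 2 in FL-shAlpl, 8, 20, 21, 19 and 6 in FL-shGFP, and 0, 0, 0, 5 and 2 in NL-shGFP. FL-shGFP replicates 1 to 4 stood above every other library, while replicate 5, at 0.113 CPM, lay among the NL-shGFP libraries (0 to 0.132 CPM) and the FL-shAlpl libraries (0 to 0.125 CPM). The summed counts of Aqp3 over the summed library totals were 8.39 times as high in FL-shGFP as in NL-shGFP (95% counting interval 3.88 to 21.6) and 0.231 times as high in FL-shAlpl as in FL-shGFP (0.130 to 0.391). These intervals take each count as 1 molecule and cover counting error only, while counts of 1 to 12 in the deposited table were mostly even (72.4% to 77.2% per library). With no filter, edgeR gave Aqp3 a log2 fold change of 2.98 ± 0.92 in FL-shGFP against NL-shGFP (adjusted p = 0.0202) and -2.20 ± 0.84 in FL-shAlpl against FL-shGFP (adjusted p = 0.0761). Aqp7 counts were 6, 6, 0, 2 and 0 in FL-shAlpl, 7, 4, 3, 8 and 8 in FL-shGFP, and 1, 0, 4, 1 and 6 in NL-shGFP, with all groups overlapping. Its ratio of FL-shGFP to NL-shGFP, formed as for Aqp3, was 1.98 (0.987 to 4.26), and with no filter it passed in no comparison (edgeR adjusted p of 0.347 or more). Aqp3 and Aqp7 neighbour each other on chromosome 4 in the GENCODE M21 annotation.

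Of 6 other mouse aquaporin genes looked for by symbol, 4 were found in the gene table. Aqp2 and Aqp6 were not found there, and Mip, Aqp5 and Aqp12 failed the filter. Aqp9, the glycerol channel of hepatocytes, was tested at low counts, 2 to 24 per library. It averaged 0.303 CPM in FL-shAlpl, 0.288 in FL-shGFP and 0.343 in NL-shGFP, and passed in no comparison (edgeR adjusted p of 0.716 or more). The log2 fold changes of Aqp9 were 0.09 ± 0.55 in FL-shAlpl against FL-shGFP and -0.18 ± 0.55 in FL-shAlpl against NL-shGFP. In FL-shGFP against NL-shGFP the value was -0.27 ± 0.56. Aqp5, known from glands, had 20 counts in all, every one in FL-shGFP replicates 4 and 5. Mip, the lens channel, and Aqp12, known from the pancreas, had sums of 12 to 35 counts in each group.

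The make-up of the aquaporin pool restates the levels above, so libraries that stood out for Aqp8 or Aqp1 stand out in it too. Shares are of the summed FPKM of the 6 genes. That sum ran from 181 to 417 FPKM in FL-shAlpl, 162 to 485 in FL-shGFP and 133 to 150.2 in NL-shGFP. In FPKM, both fatty liver groups thus lay above the NL-shGFP range in every library. FPKM is scaled by library totals without TMM factors, and mitochondrially encoded genes took a larger part of those totals in NL-shGFP. The separation is stated for FPKM alone, since no such sum was formed with TMM factors. In FL-shAlpl replicates 1 to 5, Aqp8 held 34.4%, 50.7%, 50.5%, 50.6% and 28.8% of the sum, in FL-shGFP it held 76.3%, 80.6%, 31.0%, 84.5% and 21.6%, and in NL-shGFP it held 40.2%, 42.9%, 29.9%, 33.2% and 5.72%. It was the main aquaporin of FL-shGFP replicates 1, 2 and 4 and not of replicates 3 and 5. Aqp1 held 5.22% to 21.1% in FL-shAlpl, 1.43% to 44.7% in FL-shGFP and 39.5% to 50.9% in NL-shGFP, apart from NL-shGFP in every FL-shAlpl library. Aqp4 held 31.2% to 63.8% in FL-shAlpl, 13.8% to 39.5% in FL-shGFP and 14.1% to 41.9% in NL-shGFP. The ratio of Aqp1 to Aqp4, which compares 2 genes within a library and so does not depend on its total, was 0.108 to 0.566 in FL-shAlpl, 0.104 to 1.37 in FL-shGFP and 1.22 to 2.96 in NL-shGFP.

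**Figure D4:**
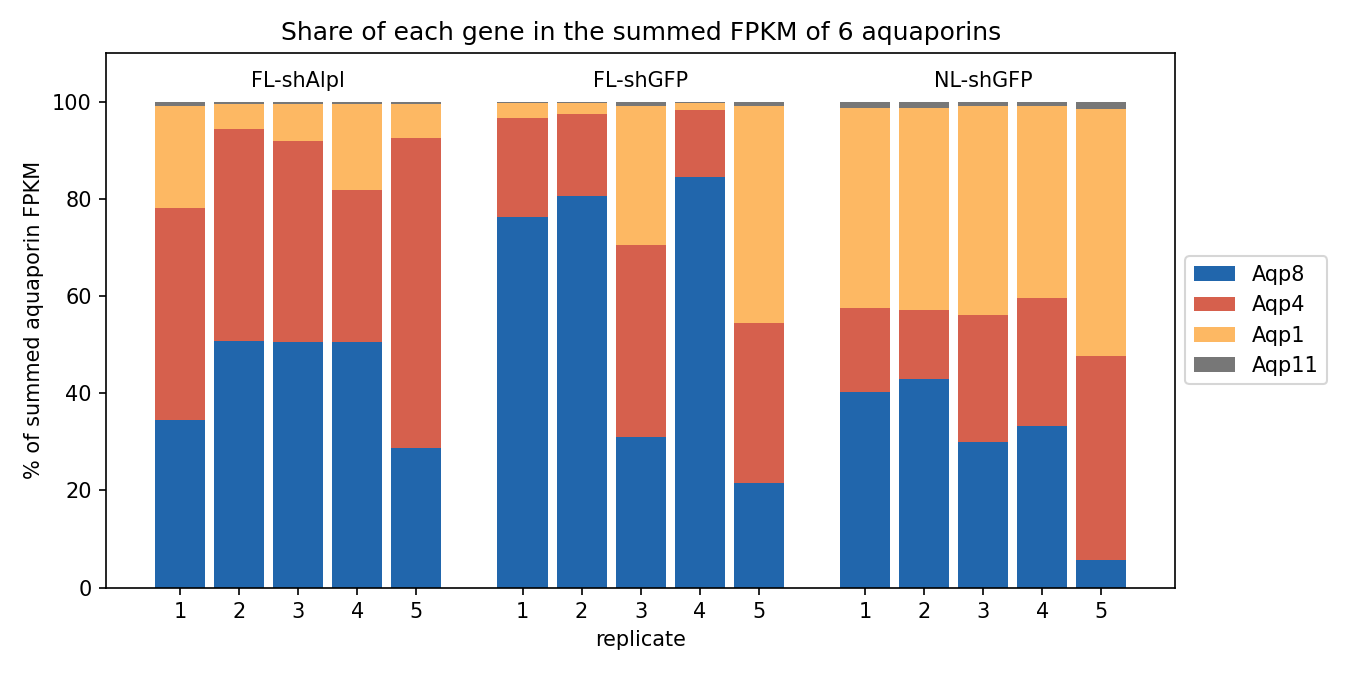
Share of each gene in the summed FPKM of the 6 aquaporins, 1 bar per library, replicates 1 to 5 of each group. Aqp8 takes over 76% of the bar in FL-shGFP replicates 1, 2 and 4, while Aqp1 takes 28.6% and 44.7% in replicates 3 and 5, and Aqp3 and Aqp7 are too low to be seen.

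FL-shGFP replicates 3 and 5 also had the most crypt-base and the least surface colonocyte RNA of their group. The mean log2 CPM of 21 surface colonocyte genes, aquaporins left out, was 9.54, 9.68, 9.31, 9.93 and 8.71 in FL-shGFP replicates 1 to 5. That of 14 crypt-base stem cell genes was 2.29, 2.21, 2.94, 1.99 and 3.51 in the same libraries. Their T and NK cell genes, 14 markers of lymphocytes, summed to 241, 295, 126, 215 and 104 CPM, again lowest in replicates 3 and 5. The other libraries had surface scores of 7.55 to 8.61 in FL-shAlpl and 6.55 to 8.04 in NL-shGFP. NL-shGFP replicate 5, the lowest library for Aqp8, had the lowest surface score (6.55) and the highest crypt-base score (4.75) of its group.

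Most surface genes rose and most crypt-base genes fell in FL-shGFP against NL-shGFP. In FL-shAlpl against FL-shGFP most members of both lists moved the other way, and both comparisons share the FL-shGFP libraries. Of all genes tested, 46.7% passed in FL-shGFP against NL-shGFP, 36% in FL-shAlpl against FL-shGFP and 17.4% in FL-shAlpl against NL-shGFP. Of 21 surface genes, 16 rose and none fell in FL-shGFP against NL-shGFP, with a median log2 fold change of 2.39, and 14 fell and none rose in FL-shAlpl against FL-shGFP, with a median of -1.05. Slc26a3, the chloride and bicarbonate exchanger of surface cells, rose by 2.86 ± 0.38 in FL-shGFP (edgeR adjusted p = 6.26e-05) and fell by 1.64 ± 0.36 in FL-shAlpl against FL-shGFP (edgeR adjusted p = 0.00362). Of 14 crypt-base genes, 12 fell and none rose in FL-shGFP (median -1.72), and 11 rose and none fell in FL-shAlpl against FL-shGFP (median 1.09), while 1 fell when FL-shAlpl replicate 1 was left out. In FL-shAlpl against NL-shGFP, 8 surface genes rose and 1 fell (median 0.74), and 3 crypt-base genes fell (median -0.26). The 8 became 4 or 5 without NL-shGFP replicate 3, 4 or 5 or FL-shAlpl replicate 2, 3 or 5, and the 1 became 0 without NL-shGFP replicate 1 or 2 or FL-shAlpl replicate 2 and 2 without NL-shGFP replicate 5. Of 14 T and NK cell genes, 13 rose in FL-shGFP against NL-shGFP and all 14 fell in FL-shAlpl against FL-shGFP, with sums of 14.0 to 31.5 CPM in FL-shAlpl, 104 to 295 in FL-shGFP and 16.5 to 71.2 in NL-shGFP. Myeloid genes summed to 160 to 481 CPM in FL-shAlpl, 456 to 1349 in FL-shGFP and 189 to 464 in NL-shGFP. The part of these markers in the aquaporin values was not tested.

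Posterior Hox and distal colon genes, which mark position along the gut, were higher in the same groups as Aqp4. Of 9 tested, 6 rose and none fell in FL-shAlpl against NL-shGFP, with a median log2 fold change of 2.53. In FL-shGFP against NL-shGFP, 4 rose and 1 fell, with a median of 0.88. Of all genes tested, 17.4% passed in the first of these comparisons and 46.7% in the second. Hoxb13 averaged 102 CPM in FL-shAlpl, 62.9 in FL-shGFP and 6.68 in NL-shGFP, and rose in FL-shAlpl over NL-shGFP by 3.93 ± 0.37 (edgeR adjusted p = 3.04e-05). FL-shAlpl against FL-shGFP had 4 of 9 higher and none lower by edgeR, where 36% of all genes tested passed. That count was 1 or 2 without FL-shGFP replicate 1, 3, 4 or 5 or without FL-shAlpl replicate 1, 2 or 3. The 11 genes in the table summed to 230 to 392 CPM in FL-shAlpl, 132 to 272 in FL-shGFP and 131 to 181 in NL-shGFP. Hoxc10 was at 0 in FL-shAlpl and NL-shGFP, and Hoxd12 in NL-shGFP. Whether crypts came from the same stretch of colon in each group is not given in the sources used here, and its part in the Aqp4 values was not tested.

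**Figure D5:**
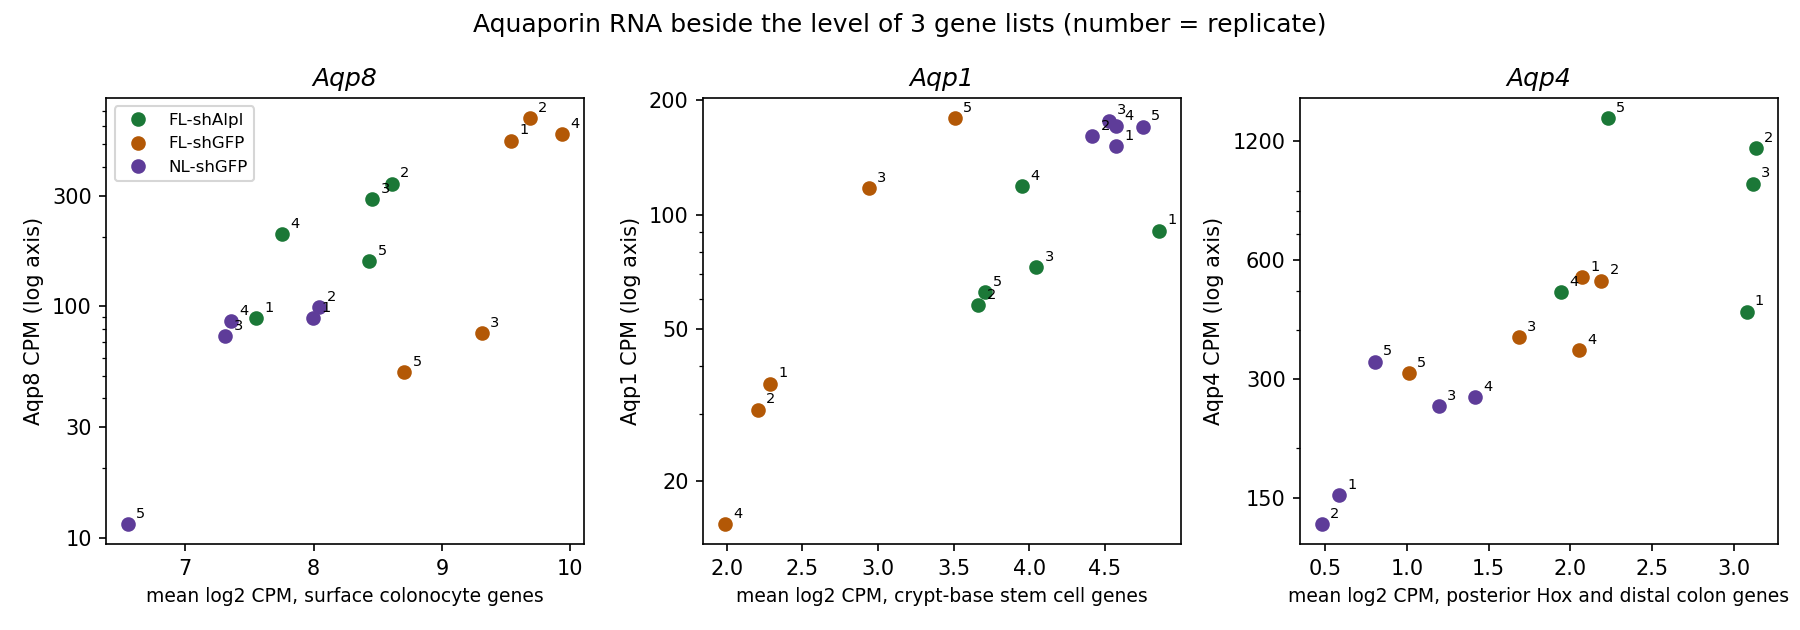
CPM (log axis) of Aqp8, Aqp1 and Aqp4 against the mean log2 CPM of surface colonocyte genes, crypt-base stem cell genes, and posterior Hox and distal colon genes, 1 point per library with its replicate number. FL-shGFP replicates 3 and 5 combine surface scores of 9.31 and 8.71, above every FL-shAlpl and NL-shGFP library, with Aqp8 at 76.3 and 52.0 CPM, and crypt-base scores of 2.94 and 3.51, below all those libraries, with Aqp1 at 117 and 179 CPM.

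The genes whose profiles were most like each aquaporin were ranked by the root mean square difference of centred log2 CPM over the 15 libraries, among 10031 tested genes with a mean of at least 5 CPM. For Aqp8 they were Bmp2 (0.548), Ifit1bl2 (0.568) and Adgrf1 (0.603), where the SD of Aqp8 itself was 1.497 and the median over all candidates 1.54. Bmp2, a growth factor of the upper crypt, averaged 16.2 ± 6.79 CPM in FL-shAlpl, 34.6 ± 24.4 in FL-shGFP and 7.13 ± 3.60 in NL-shGFP. Clic6 (0.379) and Slc1a1 (0.425) were among those nearest Aqp4, against an SD of 0.93 for Aqp4. Clic6, a chloride intracellular channel family gene, averaged 42.9 ± 7.10 CPM in FL-shAlpl, 18.7 ± 3.21 in FL-shGFP and 13.3 ± 3.72 in NL-shGFP. Piwil4 (0.344), Tiam1 (0.370) and Cbs (0.386) were nearest Aqp1, which had an SD of 1.05. Cbs, an enzyme that turns homocysteine into cystathionine, averaged 49.8 ± 16.9 CPM in FL-shAlpl, 45.2 ± 25.96 in FL-shGFP and 121 ± 10.2 in NL-shGFP. For Aqp11 they were Mccc1 (0.139), Ppa2 (0.156) and Chdh (0.159), all genes of mitochondrial enzymes, against an SD of 0.34. Chdh, the choline dehydrogenase, averaged 71.5 ± 7.33 CPM in FL-shAlpl, 47.7 ± 6.34 in FL-shGFP and 77.9 ± 6.87 in NL-shGFP. These distances describe the 15 libraries, which share their groups, and carry no test.

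Genes that work beside water channels were read from the same fit, beginning with the salt transporters that set up the osmotic gradient. Their counts stand beside the shares of all genes tested that passed, 46.7% in FL-shGFP against NL-shGFP and 36% in FL-shAlpl against FL-shGFP. Of 14 genes of electrogenic sodium absorption, 11 rose and 1 fell in FL-shGFP against NL-shGFP, with a median log2 fold change of 0.75. The 11 were 7 without NL-shGFP replicate 4, and the 1 was 0 without any of NL-shGFP replicates 1, 2, 4 and 5 and FL-shGFP replicates 1, 3 and 4. Scnn1g, a subunit of the epithelial sodium channel, averaged 0.277 CPM in FL-shAlpl, 12.4 in FL-shGFP and 0.634 in NL-shGFP. It rose by 4.29 ± 0.43 in FL-shGFP against NL-shGFP (edgeR adjusted p = 9.24e-06). Sgk1, a kinase that raises channel number at the membrane, averaged 70.9 CPM in FL-shAlpl, 488 in FL-shGFP and 42.1 in NL-shGFP, and rose by 3.53 ± 0.34 in FL-shGFP (edgeR adjusted p = 9.53e-06). In FL-shAlpl against FL-shGFP, 8 of the 14 fell and none rose (median -0.59). Scnn1g fell by 5.47 ± 0.46 and Sgk1 fell by 2.78 ± 0.33 on the log2 scale (edgeR adjusted p of 2.00e-05 and 9.64e-05).

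Of 19 tested genes of electroneutral salt absorption and anion secretion, 10 rose and 3 fell in FL-shGFP against NL-shGFP (median 0.71). The list shares members with the surface list, Slc9a3 and Slc26a3 among them. Slc9a3, the sodium and proton exchanger of the lumenal membrane, averaged 195 CPM in FL-shAlpl, 1121 in FL-shGFP and 67.6 in NL-shGFP. Its log2 rise in FL-shGFP over NL-shGFP was 4.05 ± 0.43 (edgeR adjusted p = 1.58e-05). Kcne3, a potassium channel subunit of chloride secretion, fell by 1.72 ± 0.22 (edgeR adjusted p = 4.06e-05). FL-shAlpl against FL-shGFP had 7 lower and 2 higher of 19 (median -0.35), the 7 being 4 without FL-shGFP replicate 2 and the 2 being 5 without FL-shGFP replicate 5. Slc9a3 fell there by 2.53 ± 0.40 and Kcne3 rose by 1.46 ± 0.21 (edgeR adjusted p of 0.000522 and 0.000290).

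Anchors and trafficking partners of water channels had 15 tested genes, of which 6 rose and 2 fell in FL-shGFP against NL-shGFP (median 0.19). In FL-shAlpl against FL-shGFP, 2 rose and 4 fell (median 0.07). Both counts were near the share of all genes tested that passed, 46.7% in the first comparison and 36% in the second. Ezr, ezrin, which links membrane proteins to actin, averaged 494 CPM in FL-shAlpl, 739 in FL-shGFP and 374 in NL-shGFP, and rose in FL-shGFP over NL-shGFP by 0.98 ± 0.15 (edgeR adjusted p = 0.000126).

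Cell volume and osmotic response genes numbered 19, of which 8 rose and 2 fell in FL-shGFP against NL-shGFP (median 0.24). The 2 were 4 without FL-shGFP replicate 5. That total was near the 46.7% of all genes tested that passed there. Slc6a6, the taurine transporter, averaged 155 CPM in FL-shAlpl, 313 in FL-shGFP and 142 in NL-shGFP, and rose in FL-shGFP over NL-shGFP by 1.14 ± 0.17 (edgeR adjusted p = 0.000135). In FL-shAlpl against FL-shGFP, 2 rose and 6 fell (median -0.07), near the 36% of all genes tested that passed there. Slc6a6 fell by 1.02 ± 0.17 and Lrrc8a, the obligatory subunit of the volume-regulated anion channel, fell by 0.86 ± 0.17 (edgeR adjusted p of 0.000648 and 0.00213).

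Solutes other than water that some aquaporins pass were covered by 2 lists. Of 20 genes of glycerol use, release and acylglycerol synthesis, 10 rose and 3 fell in FL-shGFP against NL-shGFP (median 0.46). Gk, glycerol kinase, averaged 64.3 CPM in FL-shAlpl, 86.0 in FL-shGFP and 19.4 in NL-shGFP. Gk rose by 2.15 ± 0.26 in FL-shGFP and by 1.73 ± 0.25 in FL-shAlpl, both against NL-shGFP (edgeR adjusted p of 3.24e-05 and 0.000500). In FL-shAlpl against FL-shGFP, 8 of 20 fell and 2 rose (median -0.40), the 2 being 1 without FL-shGFP replicate 1, 2 or 3 or FL-shAlpl replicate 3. Among 22 tested genes that make or remove hydrogen peroxide, 9 rose and 4 fell in FL-shGFP against NL-shGFP (median 0.22). Of all genes tested, 46.7% passed there. The 4 became 1 or 2 without NL-shGFP replicate 4 or 5 or FL-shGFP replicate 1, 2 or 4. Duox2, an oxidase that releases hydrogen peroxide at the lumenal surface, averaged 332 CPM in FL-shAlpl, 694 in FL-shGFP and 297 in NL-shGFP, and its rise in FL-shGFP against NL-shGFP was 1.22 ± 0.20 (edgeR adjusted p = 0.000230). FL-shAlpl against FL-shGFP had 5 higher and 4 lower of 22 (median 0.03), near the 36% of all genes tested that passed. The 4 became 2 without FL-shGFP replicate 1 or FL-shAlpl replicate 1 or 3, and 7 without FL-shGFP replicate 5. Duox2 fell there by 1.07 ± 0.20 and Nox1, the epithelial NADPH oxidase, rose by 2.69 ± 0.60 (edgeR adjusted p of 0.00121 and 0.00414).

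In FL-shAlpl against NL-shGFP fewer genes of these lists passed, as did fewer of all genes tested (17.4%, against 46.7% in FL-shGFP against NL-shGFP and 36% in FL-shAlpl against FL-shGFP). The counts higher and lower were 4 and 3 for sodium absorption (median 0.25), 4 and 0 for electroneutral salt and anion transport (0.24), 3 and 0 for channel partners (0.12), 2 and 3 for osmotic response (0.01), 5 and 2 for glycerol (0.08) and 3 and 0 for hydrogen peroxide (0.29), against a median of 0.05 over all genes tested. Each of the 10 libraries of FL-shAlpl and NL-shGFP moved at least 1 of these counts by over 1.5 times when left out. The sodium absorption rises then ran from 1 to 5, the salt and anion rises from 2 to 5 and the glycerol rises from 2 to 5. Fxyd4, a regulator of the sodium pump, was the sodium absorption gene with the smallest p in that comparison, at 8.97 CPM in FL-shAlpl and 0.293 CPM in NL-shGFP, a rise of 4.94 ± 0.58 on the log2 scale (edgeR adjusted p = 0.000114).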

How the data were processed

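RNA from colonic crypts was sequenced in 15 libraries, 5 per group. Column purification and selection of mRNA come from the labels' protocols. The submitters' processing notes name HISAT2. Its version, like the counting tool, the build, the annotation and any use of strand, is not given in the sources used here. Both kinds of value come in whole-series tables. The authors deposited whole read counts per gene and a table of FPKM, and each deposited FPKM was its count divided by gene length and library total, so both tables hold the same reads. Every value column belonged to a labelled library, and all 15 were kept because no pair of libraries came within sampling noise. The closest were NL-shGFP replicates 3 and 4, with a median chi-square per gene of 1.52 where noise allowed 0.854. Replicates 1 and 2 of NL-shGFP came next, at 2.35 where noise allowed 0.857.

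The counts were fitted with edgeR 4.0.16 in R 4.3.3 by a robust quasi-likelihood model with a mean per group and TMM factors. Of all genes, 17404 passed filterByExpr and 15535 did not. Tests were two-sided, with Benjamini-Hochberg adjusted p below 0.05 over all genes tested. The common biological coefficient of variation was 30.2% with 12 residual degrees of freedom, so the spread between libraries limits precision more than depth. Alternatives were RLE or upper-quartile factors, totals alone, no filter, a filter of 1 CPM in 5 libraries, DESeq2 1.42.0, limma 3.58.1 (voom with quality weights, or trend on log2(FPKM + 1) and log2(FPKM + 0.1)), only the groups compared, a replicate block, close NL-shGFP libraries summed, mitochondrially encoded genes left out, and each library left out. List scores are mean log2 CPM with a prior count of 2. The code was tested on simulated counts.

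The text names the 6 aquaporins, the other mouse aquaporins, Alpl, from each list some of up to 4 passing genes by smallest p and 2 abundant genes that did not pass, and the 3 genes most like each tested aquaporin, of which some are not reported here. AC133525.2 was added because it overlaps Aqp4. Genes and lists were chosen with earlier results of these data known. Promoter windows are those of RefSeq on GRCm38.p6, and figures were drawn with matplotlib 3.10.9 in Python 3.11.15.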

Additional observations from a re-analysis of the deposited data

Results flagged for a closer look

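A library far from the others of its group was looked for in 34 sets of 5 values, where chance flags about 1 in 20, and 3 were found. Aqp8 had 11.5 CPM in NL-shGFP replicate 5, where the other 4 libraries had 74.2 to 99.4, and the gap took up 0.713 of the range. AC133525.2, which overlaps Aqp4 on the other strand, had 0.240 CPM in NL-shGFP replicate 1, against 0.474 to 0.523 in the other 4. Alpl had 0.0499 CPM in NL-shGFP replicate 2, which is 2 counts, and 0 in the other 4. The call of Aqp8 in FL-shGFP against NL-shGFP held with each library left out, with log2 fold changes from 2.05 to 2.64 (edgeR adjusted p from 0.00328 to 0.0300).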

How the results depend on the processing

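Of the aquaporin calls, 4 held in all alternatives run. They were Aqp8 and Aqp11 in FL-shGFP against NL-shGFP, Aqp4 in FL-shAlpl against NL-shGFP, and Aqp11 in FL-shAlpl against FL-shGFP. The replicate numbers did not pair the libraries, since deviations of same-numbered libraries correlated at -0.35 to 0.33 and 5 of 15 libraries correlated best with their own number. A replicate block left 7295 genes in FL-shGFP against NL-shGFP (8128 without it), 5074 in FL-shAlpl against FL-shGFP (6261) and 2457 in FL-shAlpl against NL-shGFP (3035). With the block the edgeR adjusted p was 0.0645 for Aqp4 in FL-shAlpl against FL-shGFP, 0.0462 for Aqp1 in FL-shGFP against NL-shGFP and 0.0493 for Aqp8 in FL-shAlpl against NL-shGFP. In FL-shAlpl against NL-shGFP, 5259 genes passed with voom and 1340 with NL-shGFP replicates 3 and 4, and 1 and 2, summed. Summing also took Aqp4 in FL-shGFP against NL-shGFP to an edgeR adjusted p of 0.125. With single libraries left out, 6841 to 8816 genes passed in FL-shGFP against NL-shGFP, 4635 to 7158 in FL-shAlpl against FL-shGFP, and 1979 to 3523 in FL-shAlpl against NL-shGFP, the 1979 without FL-shAlpl replicate 2.

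Signs turned for 2 values that passed in no setting. Aqp11 in FL-shAlpl against NL-shGFP was 0.061 with totals alone, 0.097 with voom, 0.037 and 0.057 with limma on log2(FPKM + 1) and log2(FPKM + 0.1), and -0.16 to 0.014 with single libraries left out. Aqp1 in FL-shAlpl against FL-shGFP was -0.17 to 0.69 with single libraries left out.

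Of 20 list counts per comparison, some setting among 13 moved 12 in FL-shGFP against NL-shGFP, 7 in FL-shAlpl against FL-shGFP and 16 in FL-shAlpl against NL-shGFP by over 1.5 times. In FL-shGFP against NL-shGFP the rises ran from 7 to 11 for sodium absorption, 5 to 8 for osmotic response, 4 to 8 for vessels and 2 to 5 for posterior Hox genes. The falls ran from 0 to 1 for sodium absorption, 2 to 5 for salt and anions, 1 to 4 for osmotic response, 0 to 3 for partners, 1 to 3 for glycerol and 1 to 7 for hydrogen peroxide. In FL-shAlpl against FL-shGFP the falls ran from 1 to 8 for vessels, 4 to 8 for salt and anions and 2 to 7 for hydrogen peroxide, and the rises from 2 to 6 for posterior Hox genes, 2 to 4 for salt and anions and 1 to 2 for glycerol. In FL-shAlpl against NL-shGFP the rises ran from 1 to 7 for sodium absorption, 2 to 6 for salt and anions, 2 to 6 for glycerol, 1 to 6 for hydrogen peroxide, 0 to 5 for osmotic response, 2 to 6 for partners, 4 to 12 for surface genes, 3 to 8 for posterior Hox genes and 1 to 4 for vessels. The falls there ran from 0 to 5 for osmotic response, 0 to 3 for glycerol, 0 to 2 for partners, 0 to 2 for surface genes and 3 to 7 for crypt-base genes. The cause of these shifts was not tested. Counts of at most 21 per library limit what can be said of Aqp3 and Aqp7.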

Other observations

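Genes of goblet cells, the mucus makers whose secretion needs water to swell, did not move one way. Muc2, the gel-forming mucin, averaged 9821 CPM in FL-shAlpl, 15950.5 in FL-shGFP and 19514 in NL-shGFP, and fell by 0.70 ± 0.18 on the log2 scale in FL-shAlpl against FL-shGFP (edgeR adjusted p = 0.00797). Zg16, a lectin of the mucus, averaged 3041 CPM in FL-shAlpl, 8844 in FL-shGFP and 818 in NL-shGFP, and its log2 fold change in FL-shGFP against NL-shGFP was 3.43 ± 0.42 (edgeR adjusted p = 3.68e-05). Agr2, a chaperone of mucin folding, was lower in FL-shGFP than in NL-shGFP by the same test, at 1774 and 3569 CPM, a log2 fold change of -1.01 ± 0.15 (edgeR adjusted p = 0.000113).

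Of genes that mark adipocytes, the cells best known for Aqp7, Fabp4, a fatty acid carrier, averaged 0.344 CPM in FL-shAlpl, 2.03 in FL-shGFP and 0.130 in NL-shGFP. Its log2 fold change was 3.93 ± 0.64 in FL-shGFP against NL-shGFP (edgeR adjusted p = 0.000237) and -2.54 ± 0.57 in FL-shAlpl against FL-shGFP (edgeR adjusted p = 0.00369). Of 6 tested adipocyte genes, 2 rose and 0 fell in FL-shGFP against NL-shGFP, where 46.7% of all genes tested passed. In FL-shAlpl against FL-shGFP, 3 fell and 0 rose, where 36% passed. The 9 adipocyte genes in the table summed to 7.13 to 13.7 CPM in FL-shAlpl, 18.0 to 30.02 in FL-shGFP and 6.91 to 9.32 in NL-shGFP. Lipe alone averaged 3.97 CPM in FL-shAlpl and 5.67 in NL-shGFP, and Plin1 and Retn were at 0 in NL-shGFP. Their part in the Aqp7 counts was not tested.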
